A study of Homo sapiens with 18 samples.

Results

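GR binding regions (GBR), the peaks of glucocorticoid receptor (GR) ChIP-seq, were compared between 2 double depletions, that of CHD9 together with Hic-5 (siCHD9/siHic5) and that of BRM together with Hic-5 (siBRM/siHic5). A GBR was assigned to 1 list only if it did not overlap any GBR of the other list by at least 1 bp. Of 2451 siCHD9/siHic5 GBR, 423 were called in siCHD9/siHic5 only and 2028 overlapped a siBRM/siHic5 GBR. Of 3383 siBRM/siHic5 GBR, 1362 were called in siBRM/siHic5 only and 2021 overlapped a siCHD9/siHic5 GBR. Merging the 2 lists gave 3805 regions, of 9736 regions over all 6 lists of the series. All cells were U2OS-GRα, a derivative of the U2OS osteosarcoma line that stably expresses GRα, so the receptor came from an introduced gene. Every group received 2 siRNAs for 48 h and then 100 nM of the GR ligand dexamethasone (dex) for 1 h, and no group without dex was used. The other 4 groups were the control with non-specific siRNA (siNS/siNS) and the depletions of Hic-5 (siHic5/siNS), CHD9 (siCHD9/siNS) or BRM (siBRM/siNS), each paired with non-specific siRNA. Each group had 2 ChIP libraries and 1 input library, and the authors pooled the replicates into 1 list per group.

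GR binds DNA as a dimer at the glucocorticoid response element (GRE), an inverted repeat of 2 half-sites, and also occupies sites held by other factors such as AP-1, the dimer of JUN and FOS family proteins. CHD9 is a chromodomain helicase and BRM, encoded by SMARCA2, is an ATPase of the SWI/SNF complex. Both use ATP to move or remodel nucleosomes. Hic-5, encoded by TGFB1I1, is a LIM domain protein of focal adhesions that also acts in the nucleus as a coregulator of steroid receptors. The comparison asks what distinguishes sites at which GR was still detected without CHD9 from those at which it was still detected without BRM, when Hic-5 was depleted in both.

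Of the strongest GBR of each class, those that illustrate the motifs at issue are given with the 100 bp around their summit in GRCh38, plus strand, 5′ to 3′, with matches to the GRE or to AP-1 in capitals. The first pair of siCHD9/siHic5-only GBR contains AP-1 near the summit and the second pair a GRE. The siCHD9/siHic5-only GBR with nearest TSS IGFBP3 and TANK, which were stronger than those shown, had neither motif. The siBRM/siHic5-only GBR shown contain a GRE or a tandem repeat at the summit. By the measure given at the end, a repeat was found in only 3.08% of that class. The FKBP5 intron shows a GBR common to both lists with a GRE and AP-1.
siCHD9/siHic5 only, between genes, nearest TSS ZNF469, chr16:88315865-88315964: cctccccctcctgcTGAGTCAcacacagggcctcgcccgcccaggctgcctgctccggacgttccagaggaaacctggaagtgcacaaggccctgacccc
siCHD9/siHic5 only, between genes, nearest TSS TBX3, chr12:115151688-115151787: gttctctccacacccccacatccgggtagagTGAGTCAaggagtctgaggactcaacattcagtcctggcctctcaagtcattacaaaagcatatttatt
siCHD9/siHic5 only, between genes, nearest TSS SORCS1, chr10:106506708-106506807: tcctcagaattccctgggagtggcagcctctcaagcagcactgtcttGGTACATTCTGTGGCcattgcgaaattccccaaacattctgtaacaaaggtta
siCHD9/siHic5 only, intron of TGM4, chr3:44886979-44887078: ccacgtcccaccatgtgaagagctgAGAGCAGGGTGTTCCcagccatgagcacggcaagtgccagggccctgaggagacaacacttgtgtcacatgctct
siBRM/siHic5 only, intron of SLC41A3, chr3:126057397-126057496: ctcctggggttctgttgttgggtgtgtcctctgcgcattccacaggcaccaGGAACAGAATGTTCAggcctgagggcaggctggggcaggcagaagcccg
siBRM/siHic5 only, intron of CCDC149, chr4:24872658-24872757: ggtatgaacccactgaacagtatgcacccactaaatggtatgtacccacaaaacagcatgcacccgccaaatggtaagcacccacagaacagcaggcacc
siBRM/siHic5 only, intron of MCF2L, chr13:112926373-112926472: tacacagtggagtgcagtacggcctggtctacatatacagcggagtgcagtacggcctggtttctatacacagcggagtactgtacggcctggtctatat
both lists, intron of FKBP5, chr6:35728075-35728174: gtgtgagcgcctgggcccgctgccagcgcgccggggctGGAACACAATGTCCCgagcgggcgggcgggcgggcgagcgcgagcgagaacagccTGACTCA

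The share of GBR missing from the other list was 17.3% (95% Wilson interval 15.8 to 18.8) for siCHD9/siHic5 and 40.3% (38.6 to 41.9) for siBRM/siHic5. Intervals here cover counting error only, because the pooled lists hold no spread between replicates. The GBR of 1 list only were the weaker ones of their own list. Each list was divided in 10 bins by −log10 p-value. In the strongest bin of siCHD9/siHic5 GBR, 0 of 246 were missing from the siBRM/siHic5 list, with a Wilson upper bound of 1.54%, compared with 49.4% (43.2 to 55.6) of the weakest bin. Among siBRM/siHic5 GBR these shares were 0.295% (0.0521 to 1.65) and 74.9% (70.1 to 79.2). The lists also ended at different depths of calling, since the lowest −log10 q-value was 7.74 in siCHD9/siHic5 and 14.2 in siBRM/siHic5. Only 73 of the 423 siCHD9/siHic5-only GBR (17.3%) reached 14.2, compared with 1427 (58.2%) of the whole siCHD9/siHic5 list. With both lists cut at 14.2, the one-list sets held 73 and 2032 GBR, and at 20 they held 44 and 1515, so that the gap in size was wider at equal cutoffs. Among the 1000 strongest GBR of each list they held 263 and 266. The difference in size between both sets cannot be told apart from sequencing depth, and peak heights were ranked within a list and not compared between lists.

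**Figure D1:**
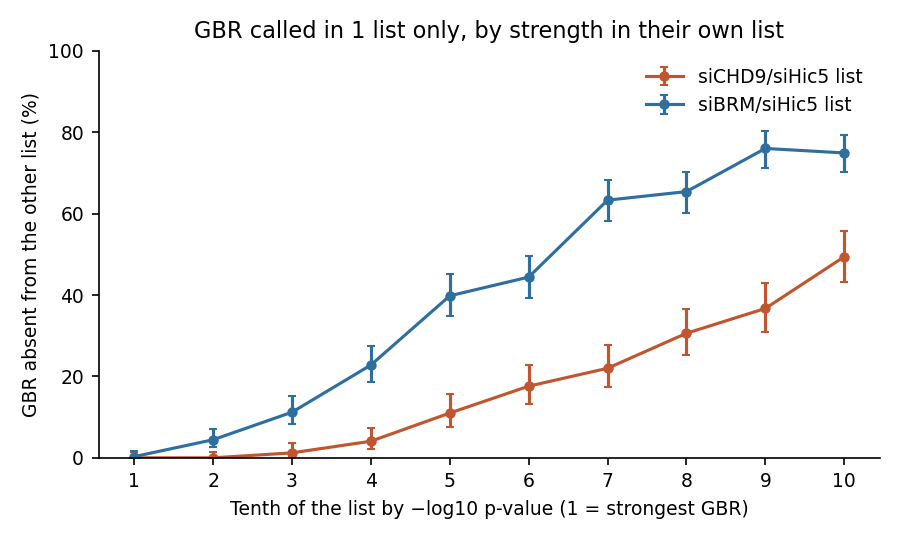
Share of GBR absent from the other list (y axis, percent) in 10 bins of the list by −log10 p-value (x axis, 1 is the strongest bin), for the siCHD9/siHic5 list and the siBRM/siHic5 list. Bars are 95% Wilson intervals, and the share goes from 0% to 49.4% in the siCHD9/siHic5 list and from 0.295% to 74.9% in the siBRM/siHic5 list.

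The siCHD9/siHic5-only GBR near ZNF469 ranked 764 of 2451 in its list (−log10 p-value 29.9) and was also called in siHic5/siNS and siCHD9/siNS, but not in siNS/siNS or siBRM/siNS. Its AP-1 match was centred 32.5 bp from the summit and no GRE was found within its 1-kb window. The GBR near TBX3, a T-box transcription factor gene, ranked 809 (−log10 p-value 28.9) and was called elsewhere in siHic5/siNS alone, with AP-1 15.5 bp from its summit. The strongest siCHD9/siHic5-only GBR, at chr7:46150675-46151110, ranked 596 (−log10 p-value 35.4), lay 229.6 kb from the TSS of IGFBP3 and had neither motif. Outside its own list it was called in siCHD9/siNS and in no other list. The strongest siBRM/siHic5-only GBR, in an intron of SLC41A3, a member of a family of magnesium transporter genes,, ranked 293 of 3383 (−log10 p-value 112) and was also called in siHic5/siNS, siNS/siNS and siBRM/siNS, but not in siCHD9/siNS. Its GRE was centred 8.50 bp from the summit. In the 6 strongest GBR of each class, AP-1 was found in 3 of those in siCHD9/siHic5 only and in 0 of those in siBRM/siHic5 only. The SORCS1 GBR is one of these 3, with AP-1 at 346 bp from its summit. In the whole classes the shares were 52.0% and 34.5%, and counts among 6 GBR are too small to set apart from these. The siCHD9/siHic5-only GBR that ranked 715, lying 253 kb from the TSS of TANK, also had neither AP-1 nor a GRE. In the CCDC149 intron, which held 5 GRE in its 1-kb window but none in the sequence printed, 70.4% of bases of the central 400 bp were identical to the base 18 bp further on, and in the MCF2L intron, with no GRE, 82.9% were identical to the base 66 bp further on.

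Of the 14 sequence features tested at the authors' cutoffs, AP-1 had the lowest p-value. The AP-1 consensus TGACTCA or its reverse complement TGAGTCA was found within the 1-kb window around the summit of 220 of 423 siCHD9/siHic5-only GBR (52.0%, 47.3 to 56.7) and 470 of 1362 siBRM/siHic5-only GBR (34.5%, 32.0 to 37.1). GBR of both lists were in between, with 45.8% (43.7 to 48.0). Windows of the same length 5 kb to either side held AP-1 in 14.5% for siCHD9/siHic5-only, 15.4% for siBRM/siHic5-only and 16.8% for GBR of both lists. The odds ratio of siCHD9/siHic5-only against siBRM/siHic5-only GBR was 2.06 (1.65 to 2.57; 2-sided Fisher's exact test, adjusted p = 2.57e-09 over 14 features). In the central 200 bp the shares were 33.6% and 17.3% (odds ratio 2.42, 1.90 to 3.10). Among the 690 one-list GBR with AP-1, 31.9% were called in siCHD9/siHic5 only, compared with 18.5% of the 1095 without it. The test compares GBR of 2 pooled lists and not replicated depletions.

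The difference in AP-1 was recomputed among GBR of similar strength or composition. When GBR that overlapped a siHic5/siNS GBR were matched in 10 groups by their rank in that list, the common odds ratio was 2.06 (1.61 to 2.64, n = 348 and n = 1308 GBR, Cochran-Mantel-Haenszel test, adjusted p = 7.11e-08), and it was 2.02 (1.61 to 2.52) when matched in 5 groups by GC content. With both lists cut at a −log10 q-value of 14.2 it was 1.74 (1.09 to 2.77, Fisher's exact test, adjusted p = 0.0916). At 20, with 44 siCHD9/siHic5-only GBR left, it was 1.63 (0.892 to 2.96, Fisher's exact test, adjusted p = 0.337), so the call was lost at both cutoffs. Among one-list GBR at or above 14.2, but with the other list in full, it was 1.95 (1.22 to 3.13, Fisher's exact test, adjusted p = 0.0275).

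The GRE showed the opposite order. Allowing 1 mismatch among the 10 positions that the motif defines, a GRE was found in 45.4% (40.7 to 50.2) of siCHD9/siHic5-only GBR, 55.1% (52.4 to 57.7) of siBRM/siHic5-only GBR and 65.9% (63.8 to 67.9) of GBR of both lists, compared with 11.3%, 12.6% and 12.9% of the flanking windows. The odds ratio was 0.678 (0.545 to 0.844, Fisher's exact test, adjusted p = 0.00253). This call did not hold when GBR were matched by rank in siHic5/siNS (0.788, 0.619 to 1.00, n = 348 and n = 1308 GBR, Cochran-Mantel-Haenszel test, adjusted p = 0.124). Among the 1000 strongest GBR of each list the direction turned (1.16, 0.812 to 1.66, Fisher's exact test, adjusted p = 0.651). More than 1 GRE was found in 4.96% of siCHD9/siHic5-only and 14.0% of siBRM/siHic5-only GBR. Where present, the nearest GRE lay a median of 23.5 bp from the summit in siCHD9/siHic5-only GBR and 20.0 bp in siBRM/siHic5-only GBR. For AP-1 these distances were 74.5 bp and 97.5 bp.

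**Figure D2:**
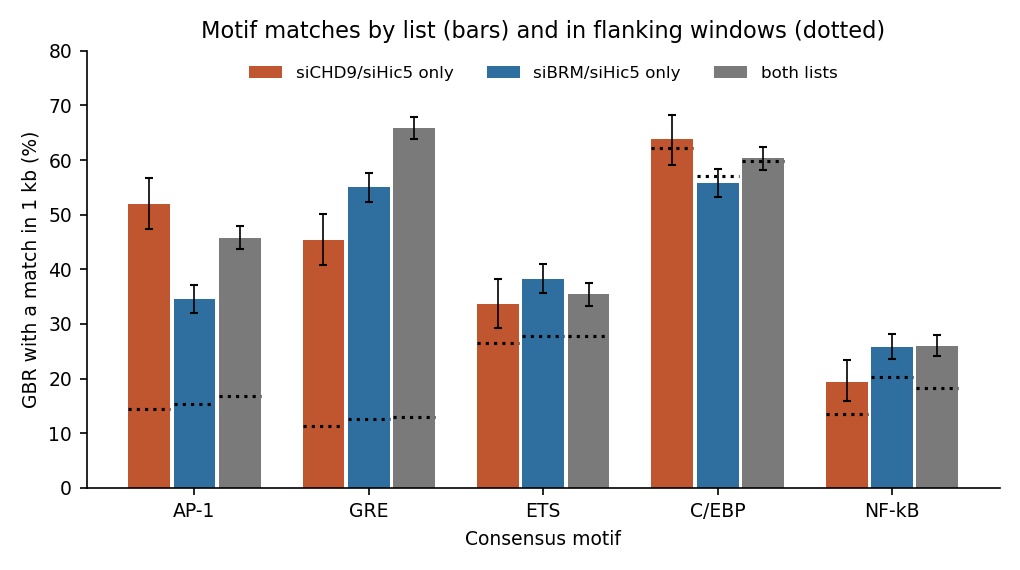
Share of GBR with a consensus match in the 1-kb window (y axis, percent) for 5 motifs (x axis) in GBR called in siCHD9/siHic5 only, in siBRM/siHic5 only and in both lists. Error bars are 95% Wilson intervals and dotted lines the share in windows 5 kb to either side; AP-1 is found in 52.0% and 34.5% of the GBR of 1 list only.

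**Figure D3:**
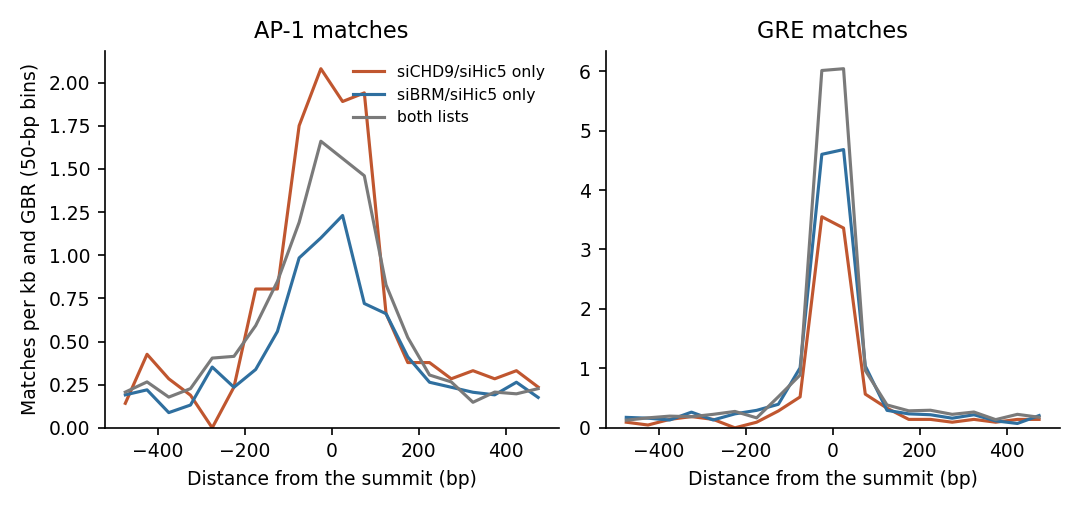
Matches of AP-1 (left) and of the GRE (right) per kb and GBR (y axis, scales differ) by distance from the summit in bp (x axis, 50-bp bins) for the same classes. AP-1 matches of siCHD9/siHic5-only GBR reach 2.08 per kb beside the summit compared with at most 1.23 in siBRM/siHic5-only GBR, whereas GRE matches are fewest in siCHD9/siHic5-only GBR.

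Taking both motifs at once, AP-1 without a GRE was found in 30.7% (26.5 to 35.3) of siCHD9/siHic5-only and 18.4% (16.4 to 20.5) of siBRM/siHic5-only GBR (odds ratio 1.97, 1.54 to 2.53, Fisher's exact test, adjusted p = 2.81e-07 over 8 tests of motif combinations). A GRE without AP-1 was found in 24.1% (20.3 to 28.4) and 38.9% (36.4 to 41.5), respectively (odds ratio 0.499, 0.389 to 0.639, Fisher's exact test, adjusted p = 6.00e-08). Both motifs together occurred in 21.3% and 16.2% (odds ratio 1.40, Fisher's exact test, adjusted p = 0.0247). Neither motif was found in 23.9% and 26.6% (odds ratio 0.866, 0.672 to 1.12, Fisher's exact test, adjusted p = 0.321). On the full lists the classes thus differed in which of both motifs a GBR held, and the interval for GBR without either included 1. The combinations were not recomputed at other cutoffs. With both lists cut at a −log10 q-value of 14.2, neither motif alone passed (Fisher's exact test, adjusted p = 0.0916 for AP-1 and 0.273 for the GRE).

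Base composition differed as well. A GC content of at least 50% was found in 28.6% (24.5 to 33.1) of siCHD9/siHic5-only and 42.7% (40.1 to 45.4) of siBRM/siHic5-only GBR (odds ratio 0.537, 0.424 to 0.680, Fisher's exact test, adjusted p = 1.05e-06). It was 0.396 (0.226 to 0.694, Fisher's exact test, adjusted p = 0.00898) with both lists at a −log10 q-value of 14.2, where AP-1 did not pass, and 0.355 (0.247 to 0.510, Fisher's exact test, adjusted p = 2.45e-07) among the 1000 strongest GBR of each list, where AP-1 was at 1.70 (1.20 to 2.40, Fisher's exact test, adjusted p = 0.0138). At 20 it was 0.487 (0.249 to 0.953, Fisher's exact test, adjusted p = 0.294), and matched by rank in siHic5/siNS 0.470 (0.358 to 0.617). The C/EBP consensus, TTAC or TTGC followed by 2 free positions and AA, was more frequent in siCHD9/siHic5-only GBR, with 63.8% compared with 55.8% (odds ratio 1.40, Fisher's exact test, adjusted p = 0.0141). Its flanking windows differed alike (62.2% and 57.0%), and matched by GC content its odds ratio was 1.16 (0.911 to 1.47, n = 423 and n = 1362 GBR, adjusted p = 0.518). In the 1-kb window, matched by rank in siHic5/siNS, its odds ratio was 1.58 (1.23 to 2.03). In the central 200 bp C/EBP was found in 22.2% and 14.0% (odds ratio 1.75, 1.33 to 2.31, Fisher's exact test, adjusted p = 3.50e-04). The 200-bp shares were not recomputed with matching. The NF-kB consensus was found in 19.4% and 25.8% (odds ratio 0.693, Fisher's exact test, adjusted p = 0.0216). Its flanking windows held it in 13.6% and 20.2%. Matched by GC content its odds ratio was 0.880 (0.661 to 1.17, n = 423 and n = 1362 GBR, Cochran-Mantel-Haenszel test, adjusted p = 0.577). Matched by rank in siHic5/siNS the NF-kB odds ratio was 0.686 (0.507 to 0.927), and there the call held. The ETS consensus, CAGGAA or CCGGAA followed by A or G and then by C or T, occurred in 33.6% (29.2 to 38.2) and 38.3% (35.7 to 40.9), with 26.6% and 27.7% in the flanking windows (odds ratio 0.816, 0.648 to 1.03, Fisher's exact test, adjusted p = 0.196). Of the 14 features, 5 passed the adjusted threshold of 0.05. Those that did not, beside ETS, were RUNX (TGCGGT or TGTGGT, then C or T), TEAD (GGAATG, then C or T), the GC box (GGGCGG), CREB (TGACG followed by TCA), FOX (TATTTAC or TGTTTAC), the CTCF core, the E-box (CACGTG) and a CpG ratio of at least 0.6. Both strands were searched, and flanking windows held these motifs in 0.441% (CREB) to 32.0% (RUNX) of cases.

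The 4 other lists come from libraries that did not define the classes. In siHic5/siNS, 82.3% (78.3 to 85.6) of siCHD9/siHic5-only GBR were called, compared with 96.0% (94.9 to 96.9) of siBRM/siHic5-only GBR and 99.6% of GBR of both lists (odds ratio of the one-list classes 0.192, 0.132 to 0.277, Fisher's exact test, adjusted p = 9.00e-18). In siNS/siNS, with Hic-5 present, 18.7% and 38.8% were called, compared with 79.8% of GBR of both lists (odds ratio 0.363, Fisher's exact test, adjusted p = 6.84e-15). The siCHD9/siHic5 list reached down to a −log10 q-value of 7.74 and the siBRM/siHic5 list to 14.2. Matched by rank in siHic5/siNS, the siNS/siNS odds ratio was 0.564 (0.422 to 0.753). Among the 1000 strongest GBR of each list, that for siHic5/siNS was 0.140 (0.00718 to 2.72, Fisher's exact test, adjusted p = 0.122). In siCHD9/siNS the order turned, with 45 of 423 siCHD9/siHic5-only GBR (10.6%, 8.05 to 13.9) and 70 of 1362 siBRM/siHic5-only GBR (5.14%, 4.09 to 6.44) called (odds ratio 2.20, 1.49 to 3.25, Fisher's exact test, adjusted p = 1.52e-04). In siBRM/siNS, 15 (3.55%, 2.16 to 5.77) and 163 (12%, 10.3 to 13.8) were called (odds ratio 0.270, 0.157 to 0.464, Fisher's exact test, adjusted p = 6.12e-08), a call that did not hold with both lists at a −log10 q-value of 14.2 (0.446, adjusted p = 0.0539). Each class was thus called more often in the single depletion of the remodeler that its own list had in common. Among the 50 siCHD9/siHic5-only GBR called in exactly 1 of siCHD9/siNS and siBRM/siNS, 40 (80%, 67.0 to 88.8) were in siCHD9/siNS, compared with 43 of 179 siBRM/siHic5-only GBR (24%, 18.4 to 30.8). The odds ratio was 12.7 (5.84 to 27.4, Fisher's exact test, p = 7.71e-13), and it stayed between 7.66 and 26.4 over the 8 alternatives tried. These GBR are the smaller part of both classes, since 87.0% of siCHD9/siHic5-only and 84.9% of siBRM/siHic5-only GBR were called in neither single remodeler depletion.

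**Figure D4:**
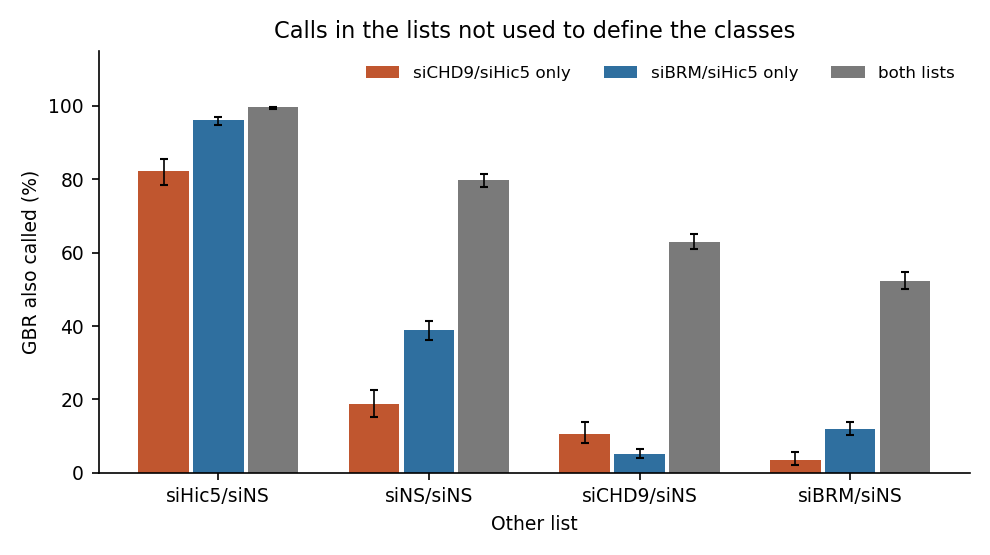
Share of GBR (y axis, percent) also called in each of the 4 other lists (x axis), for GBR in siCHD9/siHic5 only, in siBRM/siHic5 only and in both lists, with 95% Wilson intervals. The order of the one-list classes is opposite in siCHD9/siNS (10.6% and 5.14%) and in siBRM/siNS (3.55% and 12%).

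The same comparison was made with Hic-5 present, between the siCHD9/siNS and siBRM/siNS lists. AP-1 was found in 54.1% of the 481 GBR in siCHD9/siNS only and 21.9% of the 343 GBR in siBRM/siNS only (odds ratio 4.20, 3.08 to 5.75, Fisher's exact test, adjusted p = 1.24e-20 over 2 motifs). Leaving out every GBR that overlapped one of the one-list GBR above gave 56.3% of 398 and 22.8% of 197 (odds ratio 4.35, 2.95 to 6.40). Many of the GBR that remained overlapped GBR called in both Hic-5 depleted lists, so they are not separate regions. A GRE was found in 56.8% and 67.1% (odds ratio 0.645, 0.483 to 0.860, Fisher's exact test, adjusted p = 0.00297), and without the overlapping GBR in 59.5% and 66.5% (0.742, 0.519 to 1.06, adjusted p = 0.107). This comparison was added after seeing the data.

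Within the Hic-5 depleted lists, AP-1 was compared by the calls with and without Hic-5. Of siCHD9/siHic5-only GBR, 271 (64.1%) were called in siHic5/siNS and not in siNS/siNS, as were 788 (57.9%) of siBRM/siHic5-only GBR. Among these, AP-1 was found in 56.8% and 40.1% (odds ratio 1.97, 1.49 to 2.60, Fisher's exact test, p = 1.96e-06). Among GBR also called in siNS/siNS, it was found in 40.5% of 79 and 25.6% of 528 (odds ratio 1.98, 1.21 to 3.24, Fisher's exact test, p = 0.00695). Among GBR called in neither, it was found in 46.6% of 73 and 41.3% of 46 (odds ratio 1.24, 0.588 to 2.61, Fisher's exact test, p = 0.705). Whether these odds ratios differ from each other was not tested.

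GBR called in both lists were compared by their rank. Of 2020 pairs of overlapping GBR, 93.6% had a higher −log10 p-value in siBRM/siHic5, and since the lists do not give the depth, this difference cannot be told apart from it. Ranks within the lists had a Spearman rho of 0.726 across GBR, which are not independent and share their genome sequence in both lists. Pairs were divided in 5 bins by the difference of their rank percentiles. AP-1 was found in 37.9% of the bin that ranked higher in siBRM/siHic5, in 38.6%, 52.0% and 50.5% of the next bins, and in 50% of the bin that ranked higher in siCHD9/siHic5 (last against first bin, odds ratio 1.64, 1.24 to 2.17, Fisher's exact test, adjusted p = 0.00790 over 12 motifs). For the GRE the shares at both ends were 63.1% and 67.1% (odds ratio 0.840, 0.629 to 1.12, Fisher's exact test, adjusted p = 0.402). C/EBP was found in 66.8% and 56.9% (odds ratio 1.52, Fisher's exact test, adjusted p = 0.0188) and the GC box in 20.5% and 29.5% (odds ratio 0.619, adjusted p = 0.0188). AP-1 was therefore less frequent in the bins that ranked higher in siBRM/siHic5 (37.9% and 38.6%). It did not rise from the middle bin (52.0%) to the bin that ranked higher in siCHD9/siHic5 (50%).

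**Figure D5:**
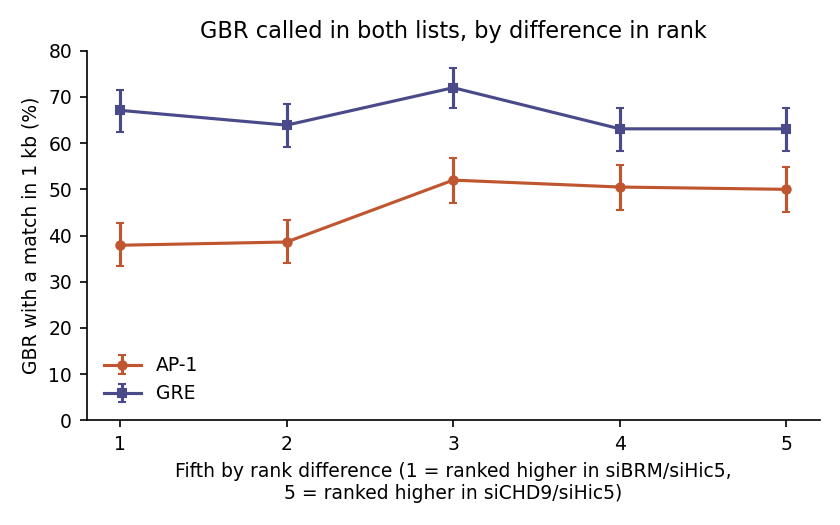
Share of GBR of both lists with AP-1 or a GRE in the 1-kb window (y axis, percent) in 5 bins of the difference in rank percentile (x axis, 1 ranked higher in siBRM/siHic5, 5 ranked higher in siCHD9/siHic5), with 95% Wilson intervals. AP-1 is at 37.9%, 38.6%, 52.0%, 50.5% and 50% in bins 1 to 5, and the GRE is at 67.1% in bin 1 and 63.1% in bin 5.

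The GBR that changed rank the most are given with the summit sequences of 1 in each direction, on the plus strand of GRCh38, to show the arrangement of their motifs.
ranked higher in siCHD9/siHic5, intron of MACROD2, chr20:14288740-14288839: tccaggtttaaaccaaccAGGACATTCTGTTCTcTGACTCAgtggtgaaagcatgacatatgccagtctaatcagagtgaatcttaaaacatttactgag
ranked higher in siBRM/siHic5, intron of STAC2, chr17:39222286-39222385: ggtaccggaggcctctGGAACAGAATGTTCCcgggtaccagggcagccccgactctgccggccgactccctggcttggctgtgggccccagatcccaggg

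In the MACROD2 intron a GRE without mismatch is followed after 1 base by AP-1. This GBR ranked 435 of 2451 in siCHD9/siHic5 (−log10 p-value 44.9) and 3297 of 3383 in siBRM/siHic5 (18.5), and was also called in siHic5/siNS and siCHD9/siNS. GBR in introns of DLGAP1, a postsynaptic scaffold gene, and of TENM4, a teneurin gene, moved in the same direction, from ranks 357 and 547 in siCHD9/siHic5 to 3151 and 2879 in siBRM/siHic5, and both also held a GRE and AP-1. All 3 were called in siCHD9/siNS and not in siBRM/siNS. In the opposite direction, the GBR in the STAC2 intron ranked 2437 in siCHD9/siHic5 (−log10 p-value 11.5) and 308 in siBRM/siHic5 (109), with a GRE without mismatch and no AP-1 in its window. The GBR in introns of DAAM2 and of NKD1, both regulators of Wnt signalling, ranked 2277 and 2353 in siCHD9/siHic5 and 383 and 441 in siBRM/siHic5, each with a GRE and no AP-1. Of these 3, that of STAC2 was called in neither siCHD9/siNS nor siBRM/siNS, that of DAAM2 in both and that of NKD1 in siBRM/siNS alone. These 6 GBR were chosen by their rank difference, so their ranks are a description. The strongest GBR of both lists hardly moved. The GBR in the intron of FKBP5, which encodes a co-chaperone of GR, ranked 1 in siCHD9/siHic5 and 3 in siBRM/siHic5, and that in an exon of NFKBIA, which encodes an inhibitor of NF-kB, ranked 4 in both lists.

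Position relative to protein-coding genes differed in 3 of 5 classes. In siCHD9/siHic5-only GBR 36.4% of summits lay in introns, compared with 44.9% in siBRM/siHic5-only GBR (odds ratio 0.702, 0.560 to 0.879, Fisher's exact test, adjusted p = 0.00991 over 5 classes). Between genes lay 56.5% and 49.6% (odds ratio 1.32, Fisher's exact test, adjusted p = 0.0357), and over 50 kb from any TSS 54.1% and 48.0% (odds ratio 1.28, adjusted p = 0.0499). Within 1 kb of a TSS lay 4.26% and 4.19% (odds ratio 1.02, 0.592 to 1.75, Fisher's exact test, adjusted p = 1.00), and in exons 7.09% and 5.43% (odds ratio 1.33, 0.857 to 2.06, Fisher's exact test, adjusted p = 0.293). With both lists at a −log10 q-value of 14.2 no class passed the threshold. Among the 1000 strongest GBR of each list, the odds ratio for over 50 kb from a TSS was 2.14 (1.51 to 3.05, Fisher's exact test, adjusted p = 1.17e-04) and that for between genes 1.76 (1.25 to 2.50, Fisher's exact test, adjusted p = 0.00397). With both lists at 20 the first was 2.15 (1.14 to 4.04, Fisher's exact test, adjusted p = 0.104). Within 10 kb of a GBR of both lists lay 14.7% of siCHD9/siHic5-only and 10.9% of siBRM/siHic5-only GBR (odds ratio 1.41, 1.02 to 1.94, Fisher's exact test, p = 0.0381). These shares were not set against those of random positions.

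Genes were counted by a GBR summit within 50 kb of their TSS. Of all 20046 protein-coding genes, 1.65% had a siCHD9/siHic5-only GBR, 5.79% a siBRM/siHic5-only GBR and 7.91% a GBR of both lists, and the gene lists are described beside these shares without a test. Of 30 classical glucocorticoid targets, 16 had a GBR of both lists, 4 a siCHD9/siHic5-only GBR and 5 a siBRM/siHic5-only GBR. Those with a siCHD9/siHic5-only GBR included ERRFI1, which encodes an inhibitor of EGFR, DUSP1, which encodes a phosphatase of MAP kinases, and KLF9, which encodes a Kruppel-like factor. The GBR of DUSP1 lay 4.58 kb upstream of its TSS, ranked 1027 of 2451 and had no AP-1 or GRE, whereas that of KLF9, 7.34 kb upstream, ranked 1342 and held AP-1. Both genes had 2 further GBR of both lists within 50 kb. The 5 with a siBRM/siHic5-only GBR were ERRFI1, BIRC3, NFKBIA, PCK1 and TSC22D3. The GBR of BIRC3, an inhibitor of apoptosis, lay 4.59 kb upstream (rank 2886 of 3383), and that of TSC22D3, which encodes the GILZ protein, 33.8 kb downstream (rank 2541), and neither was called in siNS/siNS, siCHD9/siNS or siBRM/siNS.

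Genes listed as AP-1 subunits had a siCHD9/siHic5-only GBR in 4 of 16 cases (25%, all genes 1.65%) and a siBRM/siHic5-only GBR in 3 (18.8%, all genes 5.79%). GBR of both lists lay near 5 of the 16 (31.2%, all genes 7.91%). The gene list also held MAF genes, which are not of the JUN or FOS families. The 4 with a siCHD9/siHic5-only GBR were JUN, JUNB, FOSB and MAFF. These GBR ranked from 1453 to 2442 of 2451, and only 1427 siCHD9/siHic5 GBR reached a −log10 q-value of 14.2. The siBRM/siHic5 list ended at 14.2, so this count rests on GBR below the cutoff of the other list. The GBR of JUN was 2206 bp wide, had its summit in the exon 0.267 kb downstream of the TSS and had neither AP-1 nor a GRE. FOSB had 3 GBR in its exons, with summits 0.342, 2.68 and 4.61 kb downstream of its TSS, none of which was called in any other list or held AP-1 or a GRE. A further siCHD9/siHic5-only GBR, 43.5 kb upstream of FOSB, held AP-1. That of JUNB lay 4.81 kb upstream, was nearly the weakest of its list (rank 2442 of 2451) and held AP-1 and a GRE. The GBR of MAFF lay in an exon with neither motif. siBRM/siHic5-only GBR lay near MAFK, JUND and FOSB, and the one 11.9 kb upstream of FOSB ranked 913 of 3383 in its own list, held 2 AP-1 matches and was also called in siHic5/siNS, siNS/siNS and siCHD9/siNS.

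GBR of both lists lay near 2 of 22 genes of TGF-beta signalling (9.09%, all genes 7.91%). These genes had a siBRM/siHic5-only GBR in 5 of 22 cases (22.7%, all genes 5.79%) and a siCHD9/siHic5-only GBR in 0 (all genes 1.65%). The 5 were the ligand gene TGFB1, the inhibitory SMAD genes SMAD6 and SMAD7, the ubiquitin ligase gene SMURF2 and the corepressor gene SKI. The GBR in the SKI intron ranked 1124 of 3383 and held 10 GRE and 19 ETS matches in its window. SMAD6 and SMAD7 had 2 such GBR each, and the intronic one of SMAD7, 20.3 kb downstream of its TSS, held a GRE and was called in siNS/siNS. Integrin and focal adhesion genes encode proteins of the structures where Hic-5 resides in the cytoplasm. GBR of both lists lay near 10 of 31 (32.3%, all genes 7.91%). A siBRM/siHic5-only GBR lay near 4 (12.9%, all genes 5.79%) and a siCHD9/siHic5-only GBR near 0 (all genes 1.65%). The 4 were the integrin genes ITGB1 and ITGA5, the zyxin gene ZYX and the adaptor gene BCAR1. All 4 GBR were called elsewhere in siHic5/siNS alone. The GBR of ZYX lay 0.188 kb upstream of its TSS and held AP-1, and that of ITGB1, 4.91 kb downstream, held 2 GRE. Within 100 kb, siCHD9/siHic5-only GBR lay near 1 of 22 TGF-beta and 2 of 31 adhesion genes (all genes 3.25%), so both counts of 0 depend on the distance. In lists of 22 and 31 genes, these counts are too small to set apart from the shares of all genes. Within 10 kb, siBRM/siHic5-only GBR lay near 0 of 22 TGF-beta genes and 3 of 31 adhesion genes (all genes 1.41%), so the count for TGF-beta genes depends on it too.

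The remaining lists had 1 gene each with a siCHD9/siHic5-only GBR (all genes 1.65%) and 1 to 3 with a siBRM/siHic5-only GBR (all genes 5.79%), and with 11 to 25 genes in a list such counts are too small to set apart from these shares. Among 19 circadian clock genes these were BHLHE40 and TEF, among 11 MAPK phosphatases DUSP1 and DUSP2, among 12 NF-kB inhibitors TNIP1 and NFKBIA, and among 17 Kruppel-like factors KLF9 and KLF7. The GBR of BHLHE40 and of TNIP1 each held AP-1 and no GRE, and both GBR of TEF held GRE and no AP-1. DUSP2 had the strongest siBRM/siHic5-only GBR near any listed gene (rank 531 of 3383, −log10 p-value 77.0), 22.9 kb downstream of its TSS, with AP-1 and 2 GRE. Among 25 osteoblast and matrix genes, LOX, the lysyl oxidase gene, had a siCHD9/siHic5-only GBR 42.9 kb upstream with 2 AP-1 and 1 GRE match, and COL1A1, COL5A1 and MSX2 had siBRM/siHic5-only GBR. Among 20 ETS factors, ETV4 had a siCHD9/siHic5-only GBR, and EHF, SPI1 and ERF had siBRM/siHic5-only GBR. That of EHF was called in all 4 other lists.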

How the data were processed

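GR ChIP-seq was performed in U2OS-GRα cells of 6 siRNA combinations, with 12 ChIP and 6 input libraries. The authors mapped reads with BWA to GRCh38/hg38, called peaks with MACS2 on pooled replicates and applied the IDR framework. Versions of these tools and the IDR threshold are not given in the sources used here. The deposited lists give a signal value per peak, which was not used here, and a −log10 p-value with its −log10 q-value, both computed by the authors in MACS2 and used here to rank or filter GBR inside 1 list. Read depth is not part of the lists and acts on which weak GBR are called. Per the study's methods replicates were made on different days, but the lists pool them, so that p-values compare GBR of lists and not depletions.

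Groups were taken from the sample labels. No GBR reached past a GRCh38 chromosome end. Motifs were searched as consensus sequences on both strands in 1-kb and 200-bp windows, with GENCODE 44 for protein-coding genes and coordinates counted from 1. Fisher's exact test (2-sided) was applied to shares, with Benjamini-Hochberg adjustment. Matching used Cochran-Mantel-Haenszel odds ratios, and intervals are at 95% confidence. Named GBR are the 6 strongest of each one-list class, the 4 strongest of both lists, and the 3 that moved most in rank in each direction. Named genes are list members with a one-list GBR within 50 kb, except for a classical target that is not reported here. Members and lists were chosen with earlier results of these data known. Alternatives were other overlap rules, cutoffs, windows, matching and distances. The overlap, motif and odds ratio steps were tested on simulated data. Python 3.11.15, SciPy 1.17.1, statsmodels 0.14.6, pandas 2.3.3, pysam 0.24.0, samtools 1.23.1 and bedtools 2.31.1 were used. Differential binding between replicates and gene expression were not analysed here.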

Additional observations from a re-analysis of the deposited data

How the results depend on the processing

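No paired analysis was possible because the lists pool the replicates, and for the same reason no replicate could be left out. Over 198 recomputed values, 135 kept their direction and their side of the threshold, or, for counts, stayed within 1.5 times. With both lists at a −log10 q-value of 14.2, 73 siCHD9/siHic5-only GBR were left and odds ratios were 1.74 for AP-1, 0.681 for the GRE and 0.446 for calls in siBRM/siNS, all short of the threshold, while 2 of 14 features and 0 of 5 position classes passed. At 20, 44 GBR were left, AP-1 was at 1.63 and the GRE at 0.889, and 0 features and 0 position classes passed Fisher's exact test. At both cutoffs the siCHD9/siHic5-only set was smaller, while the siBRM/siHic5-only set held 2032 and 1515 GBR. Among one-list GBR at or above 14.2 with the other list in full, 73 siCHD9/siHic5-only GBR were left, with 0.711 for the GRE, 0.659 for calls in siBRM/siNS and 0 position classes past the threshold. Under this setting AP-1 was at 1.95 (Fisher's exact test, adjusted p = 0.0275), and 4 of 14 features passed. Among the 1000 strongest GBR of each list, 263 and 266 were in 1 list only, calls in siHic5/siNS were at 0.140 (Fisher's exact test, adjusted p = 0.122), and the GRE and ETS turned to 1.16 each. Matched by rank in siHic5/siNS the GRE was at 0.788. The cause of these losses was not tested.

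Position within 1 kb of a TSS and in exons, neither past the threshold, changed direction most often. For the TSS, odds ratios were 0.982 with summits within 250 bp, 1.000 with 50% of each GBR overlapping, 0.335 and 0.554 at the cutoffs of 14.2 and 20, 0.318 with the other list in full, 0.605 among GBR with a siHic5/siNS GBR and 0.603 when matched by rank. For exons they were 0.236, 0.193, 0.242, 0.647 and 0.581 under the latter 5 settings and 0.365 among the 1000 strongest GBR. Within 10 and 100 kb, 87 and 652 genes had a siCHD9/siHic5-only GBR, 282 and 2275 a siBRM/siHic5-only GBR, and 390 and 2921 a GBR of both lists. AP-1 kept its direction in 13 of 13 alternatives (1.63 to 4.20), of which matching by siNS/siNS calls, windows around the siHic5/siNS summit and the lists with Hic-5 present were chosen after seeing the data.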

Other observations

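The siCHD9/siHic5-only GBR that had no GBR in siHic5/siNS, 75 of 423, stood apart in position. Of these, 17 (22.7%, 14.7 to 33.3) had their summit in an exon of a protein-coding gene, compared with 0 of the 54 siBRM/siHic5-only GBR without a siHic5/siNS GBR (Wilson upper bound 6.64%, Fisher's exact test, p = 7.81e-05) and with 3.74% (2.20 to 6.29) of the 348 siCHD9/siHic5-only GBR that had one (odds ratio 7.55, 3.48 to 16.4, Fisher's exact test, p = 5.86e-07). They lay in genes of the immediate early response (EGR1 with 2 GBR, FOSB with 3, and BTG2 and RHOB), of the cytoskeleton (ACTB, ACTG1 with 2, KRT8 and KRT19 with 2), and in CTSD with 2, SLC39A6 and ABCB9. All 17 ranked from 1469 to 2427 of 2451 in siCHD9/siHic5. Only 1427 GBR of that list reached a −log10 q-value of 14.2, where the siBRM/siHic5 list ended. Since no GBR below this cutoff was kept in siBRM/siHic5, the comparison with its 54 GBR cannot be told apart from the cutoff. With both lists cut at 14.2, the exon odds ratio of all one-list GBR was 0.236 (0.0325 to 1.71). Of the same 75 GBR, 3 lay in the exon of the long noncoding RNA MALAT1, which overlaps its antisense gene TALAM1, 1 at RPPH1, the RNA of RNase P, 1 at RMRP, the RNA of RNase MRP, and 1 in an exon of the noncoding gene ENSG00000264548, with a GRE. Several were wide, up to 3008 bp at MALAT1, 1918 bp at EGR1 and 1738 bp at RHOB, compared with a median of 396 bp for the 75. Of these GBR, that of ABCB9 was called in 2 other lists, that of ENSG00000264548 in 1 and the rest in none. Neither AP-1 nor a GRE was found in 34.7% of the 75, compared with 21.6% of the siCHD9/siHic5-only GBR that had a siHic5/siNS GBR. This set was described after its values were seen.

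Tandem repeats were seen in 2 of the 6 strongest siBRM/siHic5-only GBR and then counted in every class. A repeat, defined as at least 50% of bases in the central 400 bp identical to the base at 1 fixed offset of 8 to 100 bp, was found in 42 of 1362 siBRM/siHic5-only GBR (3.08%, 2.29 to 4.14), 4 of 423 siCHD9/siHic5-only GBR (0.946%, 0.368 to 2.41) and 2.38% (1.80 to 3.13) of siBRM/siHic5 GBR of both lists. The odds ratio between both one-list classes was 3.33 (1.19 to 9.35, Fisher's exact test, p = 0.0132), and against GBR of both lists it was 1.31 (0.859 to 1.99, p = 0.231). The measure was chosen after the sequences were seen.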
